A study of Mus musculus with 24 samples.

Results

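The genes described here are 38 interferon-stimulated and antigen presentation genes, out of 54393 genes counted in whole mouse kidney at embryonic day 18.5. They form a list chosen by name and not by a cut on a measured value, and the list was drawn up because 2 of them, Xaf1 and Ifi202b, had lower read counts in the libraries labelled triple knockout than in their controls. Values of that comparison therefore describe the genes and support nothing by themselves, whereas the other comparisons were not used in the choice. The question was whether the pathway as a whole or only single genes differed.

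RNA was sequenced in 24 libraries from 3 mouse lines. The Dmrt2 line has 3 libraries of Dmrt2 knockout kidneys and 3 of control littermates. In the Hmx3 Hmx2 line both genes were knocked out together, with 6 knockout and 6 control libraries deposited as 2 tables (replicates 1 to 3 and replicates 4 to 6). The triple line is labelled as a knockout of Dmrt2, Hmx3 and Hmx2, with 3 knockout and 3 control libraries. All kidneys were taken at the same stage, and each group of controls is described as littermates of its knockouts. The labels give neither the alleles nor an inbred strain, and do not state whether libraries are from different embryos. The p-values therefore reflect only how far these libraries spread, part of which may be technical. Libraries held 52286824 to 127339273 counted reads, and 3 reads, the limit set for genes without any, correspond to 0.0235 to 0.0584 CPM, the count scaled to library size that is used for all levels.

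In the Dmrt2 knockout libraries Dmrt2 was at 1.99 ± 0.371 CPM (SD, n = 3) against 13.7 ± 1.39 in controls (SD, n = 3), and Hmx2 was at 0.0224 ± 0.0260 CPM in the Hmx3 Hmx2 knockouts (SD, n = 6) against 1.93 ± 0.296 in controls (SD, n = 6). In the libraries labelled triple knockout Hmx2 was at 0.00703 ± 0.0122 CPM (SD, n = 3) but Dmrt2 was at 18.4 ± 0.746 CPM (SD, n = 3), above the 11.5 ± 0.727 of their controls (SD, n = 3). The labels do not say which exons an allele removes, so reads of Dmrt2 do not test its deletion, and "labelled triple knockout" is kept throughout. The 8 markers of nephron progenitors, podocytes, tubule and collecting duct summed to 2362 to 2895 CPM in every library, with none at 0 reads.

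Interferons are secreted proteins that bind receptors on nearly all cells and switch on a common program through Janus kinases and STAT transcription factors. Type I interferon signals through a complex with STAT2 and IRF9 that binds interferon-stimulated response elements, whereas interferon gamma acts mainly at GAS elements. The program includes sensors of foreign RNA and DNA, enzymes that block viruses, and the proteasome subunits, peptide transporter and beta-2-microglobulin that load peptides on MHC class I molecules. Many tissues express it at a low level without infection, and several of its genes differ between inbred mouse strains, Ifi202b among them.

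Promoter sequences are shown for 5 members: Xaf1 and Ifi202b, which prompted the list, Isg15 and B2m, whose values by library are given, and Ifit1, as a window with separate matches to an interferon-stimulated response element. Each is the stretch of 250 bases before the annotated gene start, 5′ to 3′ on the gene's strand, from RefSeq on build GRCm38.p6. Capitals mark matches to GAAA, any 2 bases and GAAA again, or on the other strand TTTC, any 2 bases and TTTC, the core of an interferon-stimulated response element, and overlapping matches run together.
Isg15: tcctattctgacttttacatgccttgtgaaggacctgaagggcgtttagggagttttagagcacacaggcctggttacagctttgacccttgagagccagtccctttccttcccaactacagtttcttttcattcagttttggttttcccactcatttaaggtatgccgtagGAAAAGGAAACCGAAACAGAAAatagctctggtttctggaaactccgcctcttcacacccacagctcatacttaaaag
Ifit1: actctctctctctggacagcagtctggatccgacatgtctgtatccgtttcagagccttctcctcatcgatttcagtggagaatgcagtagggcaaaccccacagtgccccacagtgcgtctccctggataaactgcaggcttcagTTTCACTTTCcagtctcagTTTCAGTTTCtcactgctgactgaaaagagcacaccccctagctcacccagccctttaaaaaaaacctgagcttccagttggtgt
B2m: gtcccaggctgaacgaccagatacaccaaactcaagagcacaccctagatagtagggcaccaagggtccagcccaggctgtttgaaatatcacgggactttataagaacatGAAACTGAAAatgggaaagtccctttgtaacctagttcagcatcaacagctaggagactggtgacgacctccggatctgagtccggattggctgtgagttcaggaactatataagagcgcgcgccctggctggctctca
Xaf1: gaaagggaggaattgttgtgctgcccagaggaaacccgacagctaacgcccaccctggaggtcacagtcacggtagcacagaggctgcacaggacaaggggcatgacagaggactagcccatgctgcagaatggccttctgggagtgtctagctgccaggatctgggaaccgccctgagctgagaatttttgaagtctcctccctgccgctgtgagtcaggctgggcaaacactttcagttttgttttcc
Ifi202b: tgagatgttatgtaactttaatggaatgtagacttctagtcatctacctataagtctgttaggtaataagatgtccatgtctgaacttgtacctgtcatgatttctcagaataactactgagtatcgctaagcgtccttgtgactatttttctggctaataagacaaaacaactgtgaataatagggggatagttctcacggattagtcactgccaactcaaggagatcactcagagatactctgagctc

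These windows lie at chr4:156200819-156201068 (minus strand) for Isg15, chr19:34640639-34640888 (plus strand) for Ifit1, chr2:122147437-122147686 (plus strand) for B2m, chr11:72301379-72301628 (plus strand) for Xaf1 and chr1:173982845-173983094 (minus strand) for Ifi202b. RefSeq promoters were found for 28 of the 38 members. The response element core was present in 14 of these 28 (50%), against 936 of 27025 genes in the same table (3.46%). The Isg15 window held 3 overlapping matches, and the Ifit1 window held 2, starting at -104 and -85 relative to the gene start. The GAS core TTCNNNGAA, which reads the same on both strands, was present in 6 of the 28 (21.4%), against 8.13% of all genes. Neither the Xaf1 nor the Ifi202b window held a match to the response element core, while the Ifi202b window held 1 match to the GAS core. The median correlation of each member with the others is described further on. In the 14 members with a match to the response element core it ran from 0.77 (Ifi203) to 0.89 (Gbp3). In the members whose windows held no match it ran from 0.26 (Ifi202b) to 0.89 (Irf7). Whether a match goes with this correlation was not tested. A match is a description of the letters in these windows on the reference strain and is not a measured site.

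By CPM per kilobase of exon (RPKM), which allows genes to be compared, the members spanned a wide range of mean levels over the 24 libraries. Ifitm3, a membrane protein that hinders virus entry, was highest at 166 RPKM and B2m, the shared light chain of MHC class I molecules, was next at 131. Bst2, which tethers budding virus, was at 58.1 and Isg15, a ubiquitin-like modifier, at 20.1. The lowest were Zbp1, a sensor of Z-form nucleic acid, at 0.363 and Mx1, a GTPase against influenza virus, at 0.234. Xaf1 ranked 17 of 38 at 4.27 RPKM and Ifi202b ranked 31 at 1.20. All 38 members passed the filter on low counts in each comparison of knockouts with controls and of controls with controls, except that Ifi202b did not pass in Hmx3 Hmx2 replicates 4 to 6 fitted alone.

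**Figure D1:**
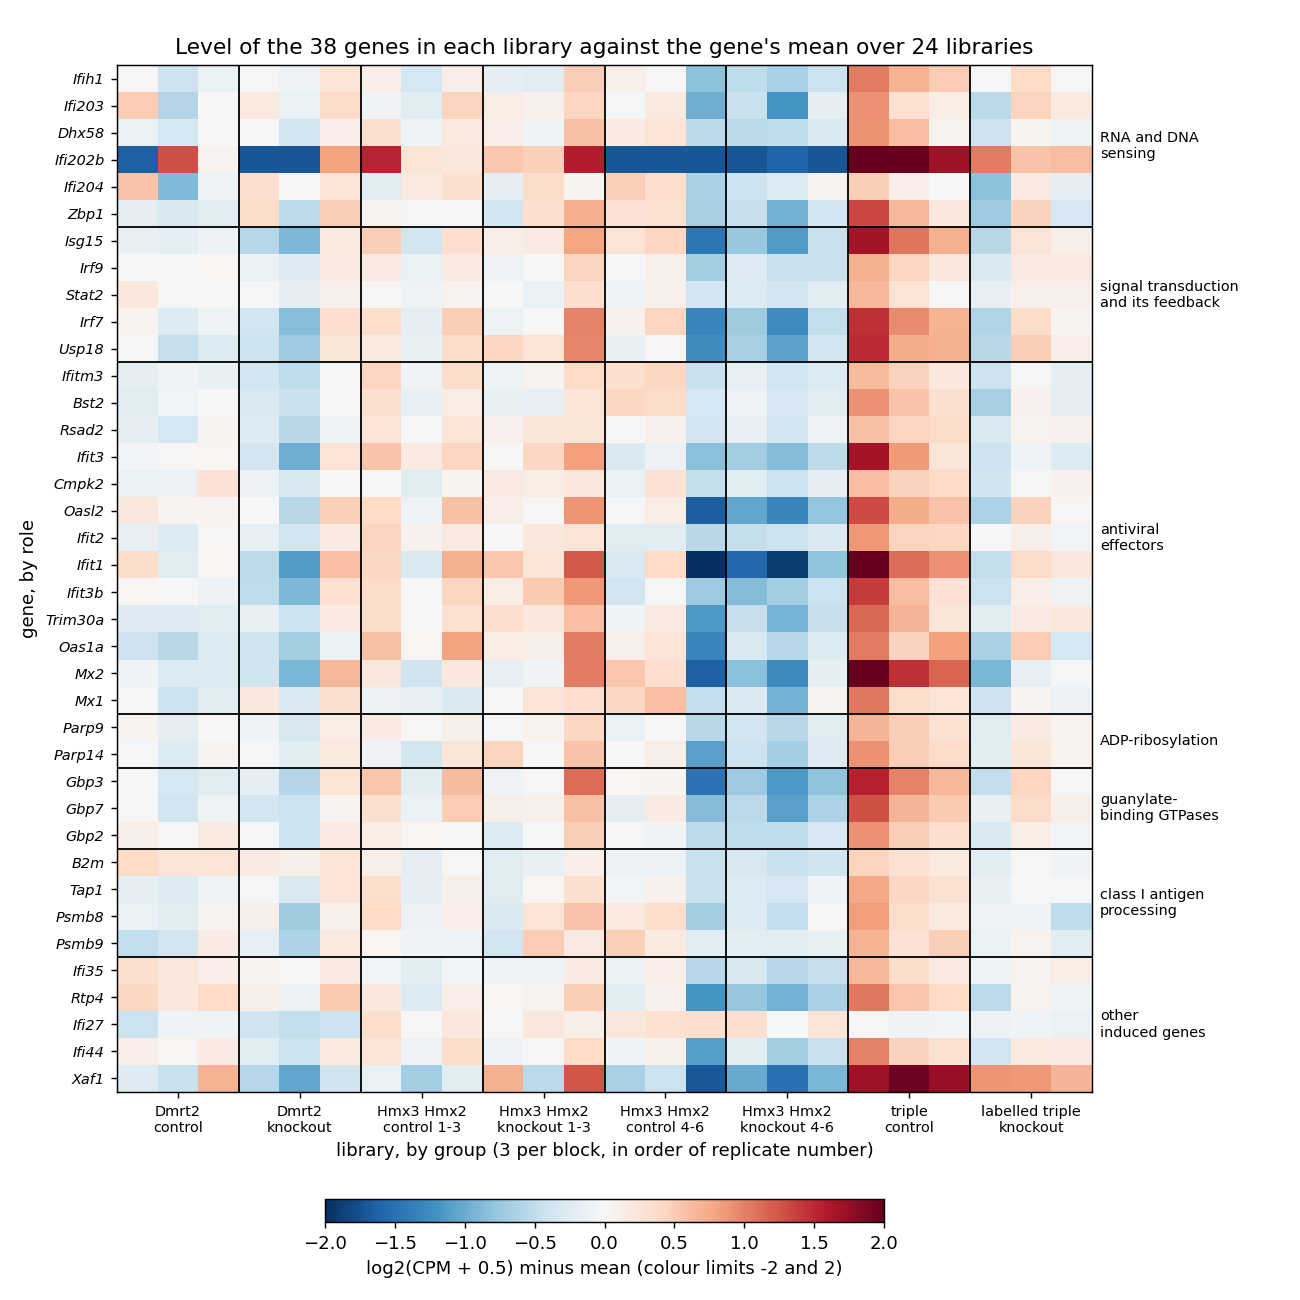
Colour shows log2(CPM + 0.5) of each of the 38 genes (vertical axis, grouped by role) in each of the 24 libraries (horizontal axis, in blocks of 3) minus the gene's mean over all libraries. Columns tend to have 1 colour, and the 3 triple controls are red for nearly every gene, while Ifi202b and Xaf1 show sharper steps between libraries of the same group.

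In the triple line all 38 members were lower in the libraries labelled triple knockout than in the controls, against 49.8% of all 21537 genes tested. The median log2 difference was -0.75 over the 38 members and -0.73 over the 36 other than Xaf1 and Ifi202b, against 0.001 over all genes. Controls and knockouts did not overlap for 33 of the 38, where 12.9% of all genes tested were lower without overlap. By edgeR's quasi-likelihood test 4 members were called lower at a Benjamini-Hochberg adjusted p under 0.05 (Xaf1, Ifi202b, B2m and Tap1), where 0.446% of all genes were called lower. This comparison chose the list, so nothing is read from these counts. The count of 4 moved with single libraries: it was 1 without triple control 2 or without triple knockout 3, 2 without triple knockout 2 and 10 without triple control 3, while the median over the 36 stayed between -0.90 and -0.54 when each library was left out. DESeq2 called 23 members, and edgeR called 16 without a filter on low counts or with expression of Y-linked genes as a term, all of them lower.

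Among the sensors, Ifih1, the cytosolic RNA sensor MDA5, was the most abundant per length, with 31.3, 24.5 and 21.5 CPM in the triple controls and 14.7, 19.9 and 15.2 CPM in the libraries labelled triple knockout. The groups did not overlap and the log2 difference was -0.63 ± 0.17 (SE). Dhx58, a helicase that tunes RNA sensing, differed by -0.78 ± 0.23 on the same scale. Zbp1 at -1.21 ± 0.56 and the DNA-binding Ifi200 family members Ifi204 at -0.54 ± 0.31 and Ifi203 at -0.41 ± 0.36 were lower on average, but their groups overlapped.

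The signalling members were ISGF3 components, a modifier and its feedback regulator. Isg15 was at 40.9, 26.9 and 20.7 CPM in the triple controls and at 8.34, 14.97 and 13.5 CPM in the libraries labelled triple knockout. Its controls were all higher, though they spread widely among themselves, and the log2 difference was -1.26 ± 0.37 (SE). Irf7, the transcription factor that amplifies interferon production, differed by -1.10 ± 0.36, and Usp18, which removes ISG15 and dampens the receptor, by -0.99 ± 0.39. The transcription factors Irf9 at -0.43 ± 0.19 and Stat2 at -0.32 ± 0.19 differed less, and for Stat2 the groups overlapped.

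Antiviral effectors were the largest set, with 13 members and a median log2 difference of -0.89 in the triple line. Mx2 had 14.98, 9.84 and 7.92 CPM in the controls and 1.498, 2.88 and 3.15 CPM in the libraries labelled triple knockout, a log2 difference of -2.11 ± 0.38 (SE) that was the greatest of all members. The translation blocker Ifit1 differed by -1.49 ± 0.49, Ifit3 by -1.32 ± 0.42 and its close copy Ifit3b by -1.03 ± 0.35. Ifitm3 was at 171, 151 and 127 CPM in controls and at 81.9, 111 and 96.6 CPM in the libraries labelled triple knockout. The groups did not overlap, and its log2 difference was -0.62 ± 0.15. Mx1, Oasl2, Bst2, Trim30a, Ifit2, Cmpk2 and Rsad2 lay between -1.11 and -0.50 without overlap, and Oas1a at -0.99 ± 0.38 overlapped. Ifit3 and Ifit3b are near-identical copies and Oas1a has close copies, and reads that fit several copies equally well were not counted, so their separate values are uncertain.

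The 2 ADP-ribosylation genes, the 3 guanylate-binding GTPases and the 4 genes of class I antigen processing were each lower in every case without overlap. Parp9 was at 24.9, 21.9 and 19.1 CPM in the triple controls and at 12.96, 17.4 and 16.2 CPM in the libraries labelled triple knockout, a log2 difference of -0.50 ± 0.12 (SE). Gbp3, which attacks the vacuoles of intracellular pathogens, was at 32.5, 21.9 and 17.4 CPM against 7.52, 14.7 and 10.9 CPM, a difference of -1.11 ± 0.36. Gbp2 and Gbp7 differed by -0.76 and -0.74, and Parp14 by -0.58. The Gbp genes form a cluster of similar copies, so their separate values are also uncertain.

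Of the antigen processing genes, B2m had the greatest level, with 151, 138 and 126 CPM in the triple controls and 95.8, 112 and 106 CPM in the libraries labelled triple knockout, a log2 difference of -0.40 ± 0.07 (SE). Tap1, a chain of the peptide transporter, was at 21.3, 16.6 and 15.4 CPM against 11.1, 12.4 and 12.02 CPM, a difference of -0.58 ± 0.11. For both genes every control lay above every library labelled triple knockout. The immunoproteasome subunits Psmb8 and Psmb9 differed by -0.81 ± 0.21 and -0.72 ± 0.19. Lower values were not limited to these subunits. For 3 constitutive proteasome subunits, Psmb5, Psmb6 and Psmb7, the median log2 deviation from the mean over all libraries was -0.13 to 0.06 in controls. It was -0.32 to -0.22 in the libraries labelled triple knockout, and Psmb5 was called lower (-0.34 ± 0.07). Of 18 further genes of MHC class I and peptide loading, 15 were lower, with a median of -0.17 and 0 called. The 7 MHC class II genes, which mark antigen-presenting cells, had a median of 0.06 with 2 of 7 lower.

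The remaining 5 members are induced genes with other or less settled roles. Ifi35 was at 21.6, 17.6 and 15.3 CPM in the triple controls and at 12.6, 14.2 and 14.9 CPM in the libraries labelled triple knockout, a log2 difference of -0.38 ± 0.12 (SE). Rtp4 differed by -0.88 ± 0.23 and Ifi44 by -0.61 ± 0.27. Ifi27 differed least of all members, at 9.06, 8.406 and 8.54 CPM against 8.13, 8.404 and 8.04 CPM, a difference of -0.08 ± 0.09. Its groups were separated only by the gap between 8.406 and 8.404 CPM.

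**Figure D2:**
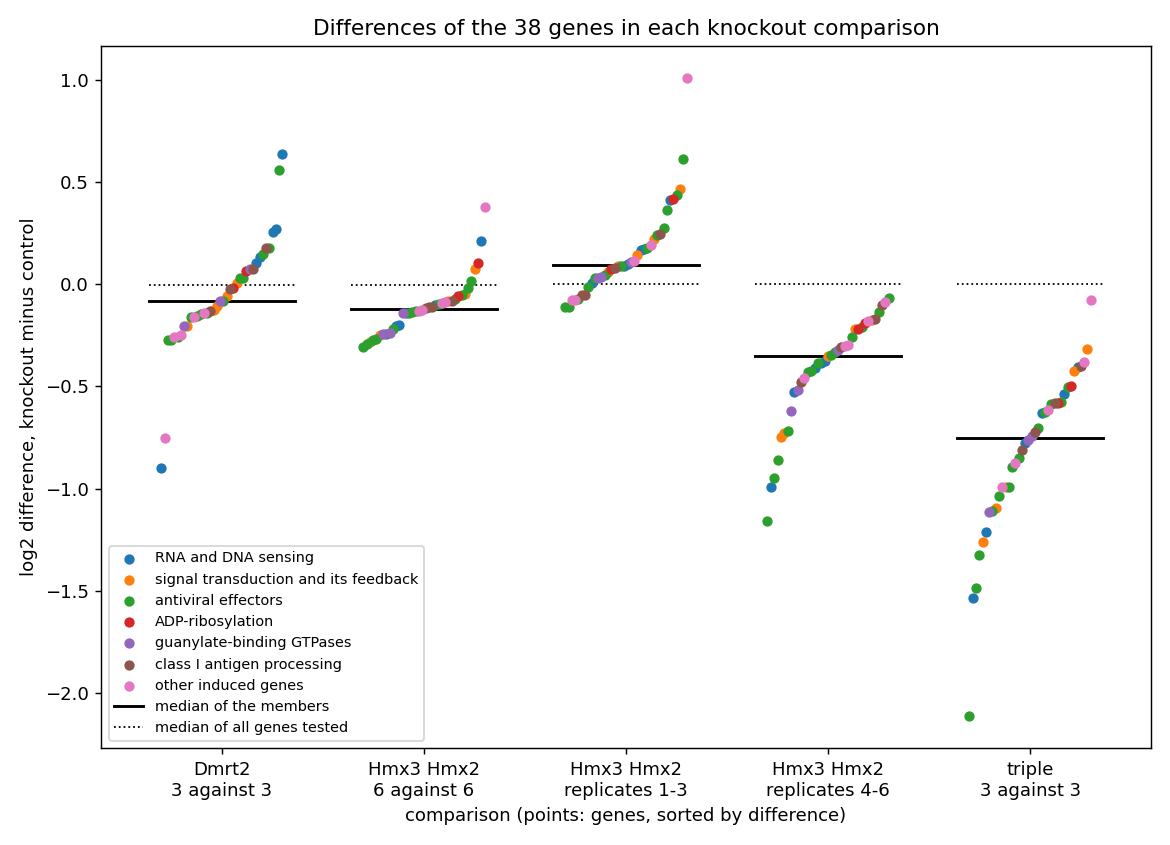
Each point is 1 of the 38 genes, with its log2 difference, knockout minus control, on the vertical axis and the comparison on the horizontal axis, coloured by role. Solid lines are medians of the members and dotted lines medians of all genes tested. Members centre near 0 in the Dmrt2 line, have medians on opposite sides of 0 in the 2 tables of the Hmx3 Hmx2 line, and are all below 0 in the triple line. Ifi202b has no point in replicates 4 to 6, where it did not pass the filter.

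The level of the 36 members other than Xaf1 and Ifi202b was summarised in each library as the median of their log2 deviations from the mean over 24 libraries. It was 0.92, 0.49 and 0.31 in the 3 triple controls, and between -0.68 and 0.27 in the 9 controls of the other lines. In the libraries labelled triple knockout it was -0.41, 0.14 and -0.01, inside the range of the other lines. Counted by gene, all 3 triple controls lay above all 9 other controls for 16 of the 38 members, where 4.29% of 22101 genes did. For 37 of the 38 members all 3 libraries labelled triple knockout lay within the range of the 18 libraries of the other lines, where 66.8% of all genes did. The exception was Bst2, at 32.1 CPM in the library labelled triple knockout 1 against at least 37.1 CPM in the other lines. The triple libraries belong to the comparison that chose the list, and the members correlate with each other. These counts therefore describe levels and are no test of which group is unusual. Lines were deposited in separate tables, so line, strain background and any preparation batch cannot be told apart between lines.

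**Figure D3:**
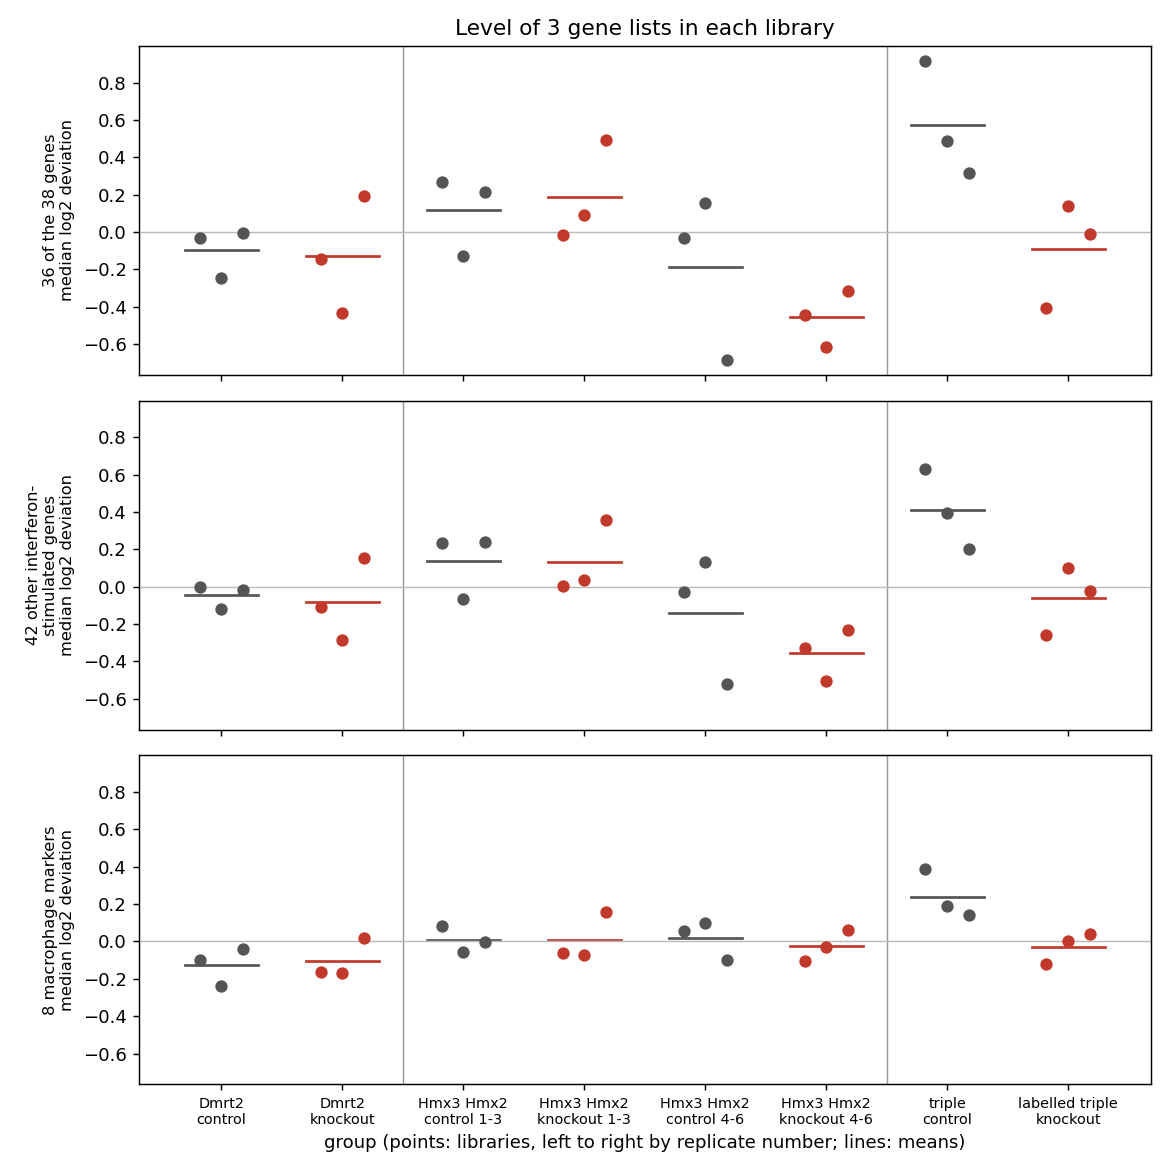
Median log2 deviation from the mean over 24 libraries (vertical axis) of 36 of the 38 genes, of 42 other interferon-stimulated genes and of 8 macrophage markers, by library and group (points, with lines at group means). The triple controls have the highest group mean in each panel, with libraries at 0.31 to 0.92 for the 36 genes and 0.14 to 0.39 for the macrophage markers.

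Genes of the same pathway outside the list varied in how far they shared this difference. Of 42 other interferon-stimulated genes, 41 were tested in the triple line and all 41 were lower, with a median log2 difference of -0.65, and Ly6e, an abundant surface protein, was the only one called (391 ± 28.1 CPM in controls and 308 ± 11.4 CPM in the libraries labelled triple knockout, SD, n = 3 each). Of 16 further signalling and transcription factor genes 15 were tested and 14 were lower, with a median of -0.20 and 0 called. The 9 interferon receptor and Janus kinase genes centred at -0.07, with 6 lower, and their median levels overlapped between the groups. Interferon genes themselves were hardly detected: of 10 ligand genes 8 to 10 were at 0 reads in every library, their sum was at most 0.128 CPM, and 0 passed the filter. These lists describe the same libraries and are no separate test.

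Markers of immune cells differed in the same direction in part. The 8 macrophage markers summed to 119 to 152 CPM in the triple controls and 108 to 117 CPM in the libraries labelled triple knockout. Of the 8 markers 6 were lower, with a median log2 difference of -0.31, and none was at 0 reads in any library. The T and natural killer cell markers were sparse, with sums of 2.58 to 2.94 CPM against 1.07 to 1.6 CPM and up to 3 of 6 at 0 reads. Among them Cd8a was called lower, at 1.72 ± 0.243 CPM in controls (SD, n = 3) and 0.449 ± 0.0436 CPM in the libraries labelled triple knockout (SD, n = 3). Over all libraries Cd8a and Cd4 averaged 1.14 and 0.658 CPM, whereas Cd3e, Cd8b1, Ncr1 and Cd3d averaged 0.0204, 0.0068, 0.0060 and 0.0046 CPM. The sums thus rest mostly on Cd8a and Cd4 and say little about T or natural killer cells. The neutrophil markers summed to 4.26 to 5.62 CPM against 2.55 to 3.30 CPM, and S100a8 was called lower. Sums of 2 other sparse lists overlapped between the groups. The 3 B cell markers summed to 0.7099 to 0.8695 CPM in the triple controls and 0.7996 to 1.044 CPM in the libraries labelled triple knockout. The 2 markers of plasmacytoid dendritic cells summed to 0.302 to 0.386 CPM and 0.293 to 0.435 CPM in the same order. Whether immune cell content has a part in the levels of the 38 members was not tested, and in whole tissue fewer cells of a type and less RNA per cell cannot be told apart.

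In the Dmrt2 line, where the members can be tested, 0 of 38 were called by edgeR's quasi-likelihood test, where 0.444% of 19807 genes were called. At an unadjusted p under 0.05 the count was also 0 of 38, where 12.3% of all genes passed, and DESeq2 likewise called 0. The median log2 difference was -0.08, with 23 of 38 below 0 against 50.6% of all genes. The order of groups of members was mixed: 5 of 6 sensors were above 0, and all 5 of the remaining induced genes below 0.

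B2m was the only member without overlap in the Dmrt2 line, where 7.71% of all genes were lower without overlap. It had 125, 120 and 132 CPM in the Dmrt2 knockouts and 146, 132 and 133 CPM in their controls. The log2 difference was -0.13 ± 0.06 (SE), with an edgeR adjusted p = 0.414, and it did not pass the test. Isg15 had 8.24, 6.44 and 14.4 CPM in the knockouts and 11.3, 10.95 and 11.5 CPM in the controls, so the spread was among the knockouts. Its log2 difference was -0.21 ± 0.30 (edgeR adjusted p = 0.848). Ifitm3 with 85.2, 76.7 and 107 CPM against 95.1, 104 and 99.2 CPM, Gbp3 with 9.29, 6.98 and 13.2 against 10.7, 8.28 and 8.99, and Parp9 with 14.7, 12.3 and 17.2 against 16.1, 13.4 and 15.3 likewise had knockout 2 below and knockout 3 above every control. Ifih1 had 15.3, 13.9 and 18.3 CPM in the knockouts and 15.02, 11.1 and 13.7 CPM in the controls, and Ifi35 13.95, 13.5 and 15.2 against 16.9, 15.9 and 14.8. Without Dmrt2 knockout 2, the lowest library of the line, the median of the 36 turned from -0.07 to 0.11.

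In the Hmx3 Hmx2 line again 0 of 38 members were called, where 0.021% of 19050 genes were called by edgeR, and DESeq2 called 0. At an unadjusted p under 0.05 the count was 0 of 38, where 4.93% of all genes passed. The median log2 difference was -0.12, with 33 of 38 below 0 against 53% of all genes. The medians of the 2 tables of the line lay on opposite sides of 0. In replicates 1 to 3 the median was 0.09 with 8 of 38 below 0, against 50.3% of all genes. Cmpk2 and Mx1 were higher in those knockouts without overlap, where 2.94% of all genes were. In replicates 4 to 6 the median was -0.35 with 37 of 37 below 0, against 50.8% of all genes. Members correlate, so these counts are not separate observations. By library, the level of the 36 members overlapped between knockouts and controls in both tables. It was -0.02 to 0.49 against -0.13 to 0.27 in replicates 1 to 3, and -0.61 to -0.32 against -0.68 to 0.15 in replicates 4 to 6.

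Single libraries stood at the ends of both tables. Isg15 was at 13.8, 14.2 and 22.1 CPM in knockouts 1 to 3 against 17.7, 9.54 and 15.8 CPM in controls, and at 7.22, 5.45 and 9.01 CPM in knockouts 4 to 6 against 15.1, 17.0 and 4.27 CPM in controls. Control 6 thus had less Isg15 than any knockout. Gbp3 gave the same picture, with 10.1, 10.9 and 23.96 CPM against 15.9, 9.10 and 16.9 CPM in replicates 1 to 3, and 6.28, 4.56 and 5.97 CPM against 11.01, 11.2 and 3.55 CPM in replicates 4 to 6. The median level of the 36 members was 0.49 in knockout 3, above every other library outside the triple controls, and -0.68 in control 6, the lowest of the 24.

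Other members of this line with values set out by library were similar. Ifitm3 was at 103, 115 and 145 CPM in knockouts 1 to 3 against 148, 104 and 141 CPM, and at 97.5, 83.8 and 90.4 CPM in knockouts 4 to 6 against 138, 147 and 80.5 CPM. Ifih1 was at 13.3, 12.9 and 21.3 CPM against 16.5, 11.6 and 16.6 CPM, and then at 10.4, 9.35 and 11.01 CPM against 16.2, 15.3 and 8.30 CPM. Parp9 ranged from 10.4 to 20.8 CPM in knockouts and from 10.3 to 17.3 CPM in controls, and Ifi35 from 8.92 to 15.3 CPM and from 8.93 to 14.8 CPM. The groups of 6 overlapped for all 38 members, where 0.0577% of all genes were lower and 0.021% higher without overlap.

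The difference between the tables was tested as an interaction, and edgeR called 0 of 20258 genes (0% of all genes) and 0 of 38 members. At an unadjusted p under 0.05 there were 2 members, Mx1 at -1.55 ± 0.65 (SE) and Zbp1 at -1.39 ± 0.61, where 2.17% of all genes passed, both with an edgeR adjusted p of 1.00. Of the 38 members 36 had an interaction below 0, against 48% of all genes. The effect of Dmrt2 knockout minus that of Hmx3 Hmx2 knockout was also tested in a single edgeR fit of the 24 libraries. It called 0 of 38 members, where 0.154% of 22101 genes were called. At an unadjusted p under 0.05 the count was 0 of 38, where 7.67% of all genes passed. The median of the members for that difference was 0.07.

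The members moved together between libraries of the same group. After the mean of each of 8 groups (group by table) was removed, the median Pearson correlation over the 703 pairs of members was 0.805 across the 24 libraries, and 99.6% of pairs were above 0. Over all pairs of 22101 genes the median was -0.0005 and 49.9% were above 0. Rtp4, at a median of 0.90 with the other 37 members, and Irf7, at 0.89, were closest to the rest. Ifi27 at 0.22, Ifi202b at 0.26, Psmb9 at 0.53, Ifi204 at 0.56 and Xaf1 at 0.58 were least so. These values describe libraries that share cells, depth and preparation, and genes are not independent replicates.

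**Figure D4:**
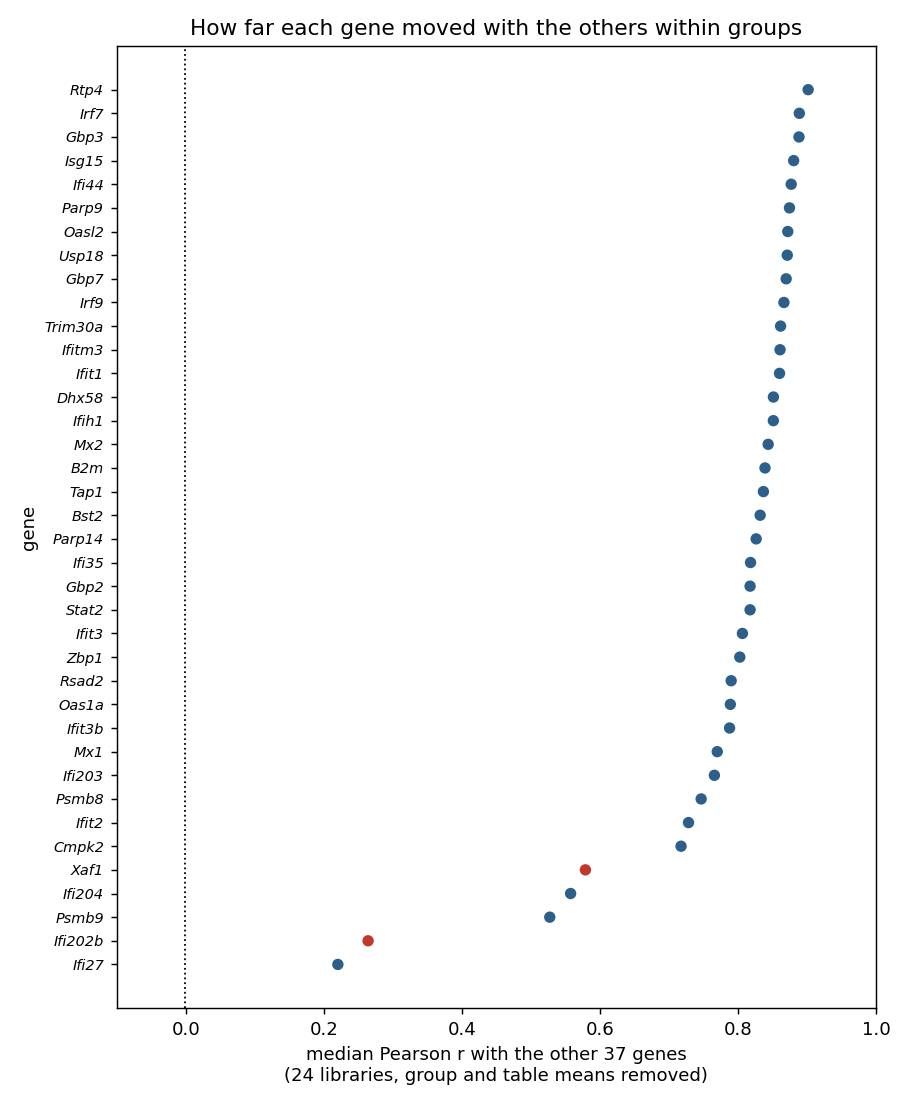
For each of the 38 genes (vertical axis), the median Pearson correlation with the other 37 genes over 24 libraries after group and table means were removed (horizontal axis). The dotted line is the median over all pairs of genes tested. The other 33 genes lie between 0.72 and 0.90, while Xaf1 and Ifi202b (red), Ifi204, Psmb9 and Ifi27 lie between 0.22 and 0.58.

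The 42 other interferon-stimulated genes had a median correlation of 0.70 with the members by the same measure, the 18 class I genes 0.35 and the 8 macrophage markers 0.47. Markers of other cells were lower, with 0.18 for endothelium, 0.11 for kidney epithelium, -0.14 for MHC class II, -0.35 for erythroid cells and -0.36 for neutrophils.

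Xaf1, a gene linked to cell death that interferon induces, lies at chr11:72192455-72204559 on the plus strand of build mm39. It had 50.7, 60.4 and 52.8 CPM in the triple controls and 28.8, 28.6 and 24.8 CPM in the libraries labelled triple knockout, a log2 difference of -0.99 ± 0.08 (SE). The groups were far apart and even within themselves. In the other lines its level stepped between libraries of 1 group: it was 12.8, 11.2 and 25.2 CPM in the Dmrt2 controls, 10.2, 7.25 and 11.6 CPM in the Dmrt2 knockouts, 25.4, 10.4 and 37.6 CPM in Hmx3 Hmx2 knockouts 1 to 3 and 14.1, 9.46 and 13.1 CPM in their controls. Replicates 4 to 6 of that line were low throughout, with 7.40, 5.14 and 7.97 CPM in knockouts and 9.60, 11.3 and 4.41 CPM in controls. Xaf1 did not pass the edgeR test in the Dmrt2 line (log2 difference -0.75 ± 0.39 SE, adjusted p = 0.538) or in the Hmx3 Hmx2 line (0.38 ± 0.40, adjusted p = 0.964).

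Set against the median of the other 36 members in the same library, Xaf1 was high in some libraries of a genotype and low in others. Its log2 CPM relative to the 36 was -0.62 to 0.03 in 15 of the 18 libraries of the Dmrt2 and Hmx3 Hmx2 lines. It was 0.90 to 1.01 in the other 3, which were Dmrt2 control 3 and Hmx3 Hmx2 knockouts 1 and 3. In the triple line all 6 libraries were high, at 0.76 to 1.66 in controls and 0.96 to 1.59 in the libraries labelled triple knockout. On this relative scale the 2 triple groups overlapped. These steps were noticed in the data and were not tested.

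Ifi202b, a DNA-binding member of the Ifi200 cluster, lies at chr1:173790134-173810310 on the minus strand of mm39. It is known to be lost in C57BL/6 mice, which lack part of the gene, and expressed in several other strains. It had 931, 690 and 527 reads in the triple controls (8.57, 6.44 and 4.82 CPM) and 283, 184 and 236 reads in the libraries labelled triple knockout (2.86, 1.94 and 2.03 CPM). The log2 difference was -1.53 ± 0.23 (SE), and the groups did not overlap.

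In the other lines Ifi202b was present or all but absent by library. Reads were 2, 273 and 86 in the Dmrt2 controls and 0, 0 and 302 in the Dmrt2 knockouts. They were 334, 138 and 90 in Hmx3 Hmx2 controls 1 to 3 and 116, 118 and 245 in the knockouts, whereas replicates 4 to 6 had 0, 0 and 0 in controls and 0, 2 and 0 in knockouts. In all, 9 of 24 libraries had fewer than 3 reads and the other 15 had over 80. Ifi202b did not pass the edgeR test in the Dmrt2 line (adjusted p = 0.912) or in the Hmx3 Hmx2 line (adjusted p = 0.981). Relative to the other 36 members, its log2 CPM was -1.74 to -1.62 in the triple controls. It was -1.54, -2.61 and -2.36 in the libraries labelled triple knockout 1 to 3. On this scale the library labelled triple knockout 1 lay above every triple control and the others below.

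**Figure D5:**
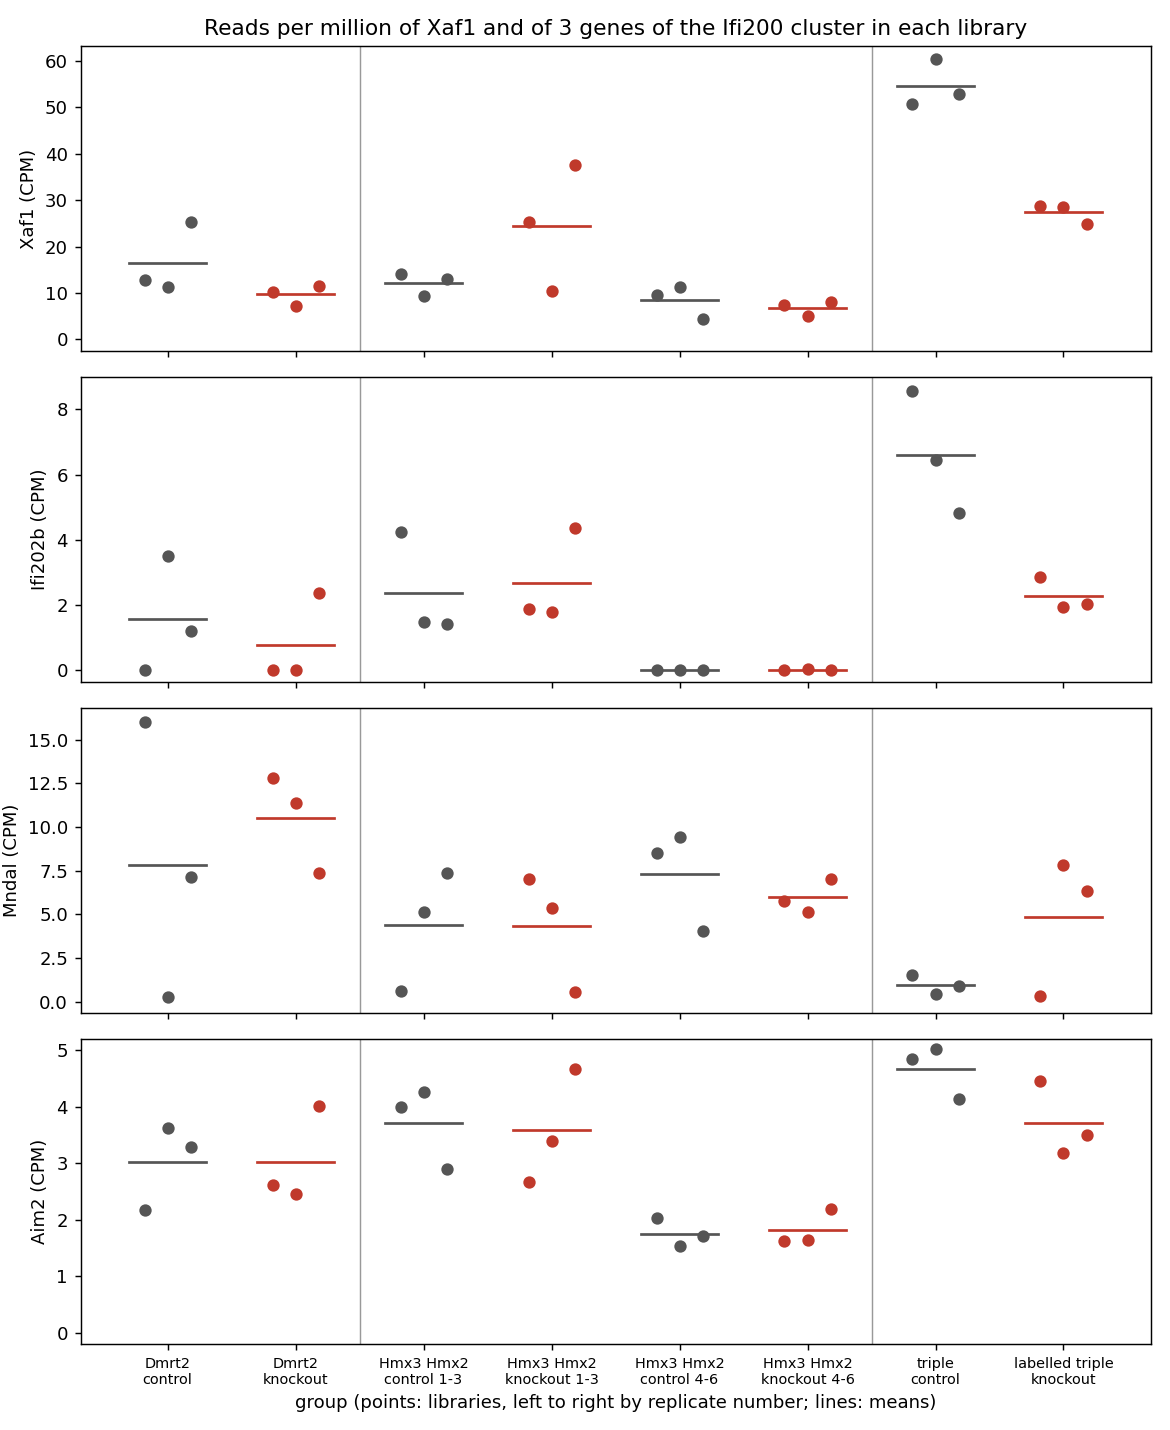
CPM (vertical axes) of Xaf1, Ifi202b, Mndal and Aim2 in each library by group (horizontal axis), with points in order of replicate number and lines at means. Ifi202b is near 0 in Dmrt2 control 1, Dmrt2 knockouts 1 and 2 and all 6 Hmx3 Hmx2 libraries of replicates 4 to 6, and Mndal is at or below 1.53 CPM in the 7 libraries where Ifi202b is at 2.86 CPM or more.

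Neighbours of Ifi202b in the Ifi200 cluster varied between libraries of the same group, some of them in the opposite sense. Mndal, another nuclear member of the family, was at 16.01, 0.257 and 7.10 CPM in the Dmrt2 controls, where Ifi202b was at 0.0273, 3.51 and 1.22 CPM. It was at 1.53, 0.458 and 0.897 CPM in the triple controls and at 0.344, 7.82 and 6.31 CPM in the libraries labelled triple knockout. In all, Mndal was at or below 1.53 CPM in 7 libraries, each with at least 2.86 CPM of Ifi202b, and at 4.01 CPM or more in the others, which had at most 2.36 CPM of Ifi202b. The 7 were Dmrt2 control 2, Hmx3 Hmx2 control 1 and knockout 3, the triple controls and the library labelled triple knockout 1. Over the 24 libraries the Spearman correlation with Ifi202b was -0.69 for Mndal, -0.73 for Ifi206 and -0.61 for Ifi213, and it was 0.89 for Aim2, the DNA sensor that starts inflammasomes. For the members Ifi203 and Ifi204 it was 0.35 and -0.10. These genes are similar copies, so reads may be split among them, and how far a difference of genotype at the cluster has a part in Ifi202b counts was not tested.

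No gene near Xaf1 or Ifi202b was called by edgeR in a knockout comparison. Of 54 genes that start within 1 Mb of Xaf1 34 or 35 were tested in each knockout comparison of the 3 lines, and of 57 near Ifi202b 15 or 16 were tested, with 0 called by edgeR. At an unadjusted p under 0.05 there were 4, 4 and 5 neighbours of Xaf1 and 1, 0 and 1 of Ifi202b in the Dmrt2, Hmx3 Hmx2 and triple lines, where 12.3%, 4.93% and 17.9% of all genes passed. Near Xaf1, DESeq2 called 1 gene (Zzef1) in the Dmrt2 line, 0 in the Hmx3 Hmx2 line, and 2 (Zzef1 and a gene without a symbol) in the triple line.

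Controls of different lines gave a measure of how far members vary without a knockout. Between the Dmrt2 controls and the mean of the 2 tables of Hmx3 Hmx2 controls edgeR called 2 of 38 members, where 31.5% of 21035 genes were called. Without overlap 3 members were higher and 1 was lower, where 12.3% of all genes were in each direction. B2m was higher in the Dmrt2 controls (146, 132 and 133 CPM) than in the Hmx3 Hmx2 controls (120, 96.6, 112, 102, 103 and 81.0 CPM), a log2 difference of 0.43 ± 0.09 (SE, adjusted p = 0.00257), without overlap. Ifi27 was lower, at 6.46, 8.33 and 8.37 CPM against 11.5, 8.93, 10.4, 10.5, 11.1 and 11.3 CPM, a difference of -0.46 ± 0.10 (adjusted p = 0.00220), again without overlap. Neither of the genes that prompted the list was called, with Xaf1 at 0.69 ± 0.33 (adjusted p = 0.159) and Ifi202b at an adjusted p = 0.142. For Ifi202b this rested on Dmrt2 control 1, which had 2 reads. Without that library edgeR called Ifi202b higher in the Dmrt2 controls (adjusted p = 0.0223). Here line and table cannot be told apart.

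Between the 2 tables of Hmx3 Hmx2 controls, which are 1 line, edgeR called 1 of 38 members, where 12.7% of genes were called. Of the 38 members 32 were below 0 against 51.3% of all genes, and 6 were lower without overlap, where 16.2% of all genes were. Ifit2 was lower in controls 4 to 6 (17.6, 17.7 and 14.04 CPM) than in controls 1 to 3 (28.6, 22.2 and 23.6 CPM), a log2 difference of -0.60 ± 0.14 (SE, adjusted p = 0.0156), without overlap. The adjusted p was 0.0585 without control 1 and 0.0549 without control 6, so the call rested on these libraries. Ifit2 in the knockouts of the 2 tables, at 20.8, 24.2 and 25.4 CPM and at 14.8, 15.4 and 17.0 CPM, was split in the same way. In the Dmrt2 line it was at 18.5, 15.99 and 23.6 CPM in knockouts and 18.6, 17.2 and 21.2 CPM in controls, and in the triple line at 38.4, 28.7 and 28.3 CPM in controls and 20.8, 22.6 and 20.0 CPM in the libraries labelled triple knockout, a difference of -0.58 ± 0.11. Ifi202b had 90 to 334 reads in controls 1 to 3 and 0 in each of controls 4 to 6. With no reads on 1 side the edgeR test (adjusted p = 0.0693) cannot decide, and it is not read as a lack of difference. No fold is given against libraries without reads, although the counts of the 38 members above include this gene.

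In the Dmrt2 and Hmx3 Hmx2 comparisons neither B2m nor Ifi27 passed. B2m was at 93.9, 100 and 121 CPM in Hmx3 Hmx2 knockouts 1 to 3 and 88.9, 81.3 and 84.002 CPM in knockouts 4 to 6, which overlapped with their controls (log2 difference -0.12 ± 0.08 SE, edgeR adjusted p = 0.946). Ifi27 was at 6.62, 6.22 and 6.53 CPM in the Dmrt2 knockouts and at 8.94, 10.5, 9.69, 11.3, 8.96 and 10.7 CPM in the Hmx3 Hmx2 knockouts. Every knockout of the Dmrt2 line lay below every library of the Hmx3 Hmx2 line, and the log2 differences of -0.26 ± 0.12 (edgeR adjusted p = 0.434) and -0.09 ± 0.07 (edgeR adjusted p = 0.957) did not pass.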

How the data were processed

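Poly(A) RNA of 24 whole-kidney libraries was measured. The authors deposited raw counts for 54393 genes in 4 tables. The submitters' processing notes name fastp 0.20.1, STAR 2.7.0e, the build mm39 and featureCounts 2.0.1, while version 2.0.3 stands in the file headers. Those headers also show a filtered GENCODE annotation, no strand option, no counting of multi-mapping reads, and both mates of a pair counted, so genes and antisense partners cannot be told apart. Gene lengths used for RPKM are exon lengths deposited in the tables. The tables hold 2 further columns without a matching sample, which were left out.

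The test was edgeR 4.0.16 (R 4.3.3) with TMM scaling, filterByExpr (minimum count 10, total 15), robust quasi-likelihood F test, Benjamini-Hochberg adjustment over all genes tested, threshold 0.05. The SE is the log2 difference over the root of F. CPM use TMM-scaled totals, and levels use log2(CPM + 0.5). The Hmx3 Hmx2 fit had the deposited table as a term. Alternatives were DESeq2 1.42.0, other scaling and filters, halved counts, a joint fit, a Y-linked term, the replicate number as a block, and each library left out. The fit was tested on simulated counts. The 38 members and all other lists were chosen with earlier results of these data known. Values by library are given for Xaf1, Ifi202b, members called in a comparison that can be tested, the most abundant member of each role, and members without overlap in at least 2 knockout comparisons. Tap1 and Mx2 in the triple line, and the Ifi200 genes other than members, were named after their values were seen. No 2 libraries of a group looked like 1 library deposited again: chi-square over degrees of freedom was 5.23 to 27.0 in 24 pairs. Expression of Y-linked genes was seen in 1 of 3 Dmrt2 knockouts and 3 of 3 controls, 2 of 6 Hmx3 Hmx2 knockouts and 4 of 6 controls, and 2 of 3 in each triple group. Intervals from depth cover counting error only.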

Additional observations from a re-analysis of the deposited data

Results flagged for a closer look

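In the Hmx3 Hmx2 line, where groups hold 6 libraries, a library was singled out when its gap to the next exceeded Dixon's 95% limit as a share of the group's range, which chance gives in about 1 in 20 groups drawn from 1 population. The groups of 6 pool 2 tables that differ in level, so this rate need not hold here. Knockout 3 was high for 6 members: Bst2 at 61.5 CPM against 47.4 in the next library, Gbp3 at 23.96 against 10.9, Ifih1 at 21.3 against 13.3, Irf7 at 37.6 against 18.5, Mx2 at 7.15 against 3.03 and Oas1a at 6.23 against 3.14. These members correlate within groups, so the 6 are not separate events. The rule was applied to the 38 members only. How large a share of all genes it would single out in knockout 3 is therefore not known, and the count says nothing particular to the members. Ifi202b was high in control 1, at 4.23 CPM against 1.49 in the next library.

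For 2 members all libraries moved one way in Hmx3 Hmx2 replicates 1 to 3 and the other way in the triple line. Cmpk2, a mitochondrial nucleotide kinase next to Rsad2, had a log2 difference of 0.24 in the former and -0.58 in the latter. Mx1 had 0.61 and -1.11. The difference between these effects was not tested, since the triple comparison chose the list.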

How the results depend on the processing

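The counts of members called in the Dmrt2 and Hmx3 Hmx2 comparisons, their difference and the interaction between tables were 0 under every alternative run. In the triple line the count of 4 became 16 without a filter, 2 with a mean of at least 1 CPM, 23 with DESeq2, and 16 with a Y-linked term, and 1 to 10 with a library left out, all lower. Leaving a library out gave 2 to 4 members for Dmrt2 against Hmx3 Hmx2 controls (4 without control 6 of the latter) and 0 to 1 between the tables of controls. The median of the 36 members kept its sign under every other setting, but turned to 0.0895 in Hmx3 Hmx2 replicates 1 to 3 alone and to 0.11 in the Dmrt2 line without knockout 2. With a library left out it ran from -0.21 to 0.11 (Dmrt2), -0.22 to -0.04 (Hmx3 Hmx2) and -0.90 to -0.54 (triple), from -0.25 to -0.03 between lines of controls and from -0.41 to -0.03 between tables of controls. Over all genes, the 88 calls of the Dmrt2 line became 676 without a filter, 434 with DESeq2, 13 with a Y-linked term and 26 to 195 with a library left out. The 222 of the triple line became 1510 without a filter, 1077 with DESeq2, 573 in the joint fit and 20 to 438 with a library left out. The 4 of the Hmx3 Hmx2 line became 2 with a mean of at least 1 CPM and 2 in each table alone, and the 0 of the interaction became 3 without a filter. The calls between tables of controls were 1350 to 2293 with a library left out, against 2664. The cause of these shifts was not tested.

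Whether the replicate numbers pair the samples was not settled. Correlations of deviations between same-numbered libraries were 0.07 to 0.11 (Dmrt2), -0.01 to 0.25 (Hmx3 Hmx2) and -0.27 to -0.11 (triple). In the same order, the own number was best for 3 of 3, 3 of 6 and 0 of 3 pairs, so the lines differed in this. With the replicate block the members called were 0, 0 and 2, the medians of the 36 were -0.09, -0.10 and -0.72, and the triple line had 51 calls over all genes.

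Depth limits Mx1 and Zbp1 most, since they had the lowest mean levels, at 0.887 and 1.28 CPM. Ifi202b had fewer than 3 reads in 9 libraries and over 80 in the other 15, a step between libraries. Groups of 3 cannot show small changes, and members at 0 called are not shown to be equal.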
